A study of Homo sapiens with 18 samples.

Results

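Collagens and laminins are the chains from which cells build basement membrane and interstitial matrix, and integrins are the receptors that bind those chains. Their genes were followed here in HK-2 cells, an immortalized human line with a proximal tubular epithelial origin, kept under control treatments only. Members were chosen by gene symbol: COL followed by a digit, LAMA, LAMB or LAMC followed by a digit, and ITGA or ITGB followed by a letter or digit. The symbol rule itself uses no measured value, but members were chosen with earlier results of these data known. Of 90 genes with such a symbol and a probe set for 1 gene, 47 passed the level for testing, among 10832 genes tested in all. They were 20 of 44 collagen genes, 8 of 13 laminin genes and 19 of 33 integrin genes. The 19 held 15 integrin chains. The symbol rule also took in ITGB1BP1 and ITGB3BP, which encode proteins that bind integrin tails, and the antisense RNAs ITGB2-AS1 and ITGB8-AS1.

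Total RNA was measured on Affymetrix HG-U133 Plus 2.0 arrays in 6 groups of 3 biological replicates, 18 arrays in all. The groups were medium alone, DMSO in medium and ethanol in medium, each after 24 h and after 48 h. All groups shared a defined medium that held 5 mM glucose, 5 µg/ml insulin, 10 ng/ml EGF and 36 ng/ml hydrocortisone. Wells were seeded 24 h ahead of treatment and had reached about 90% confluency when it began. No group received a test compound, and the labels state no amount for either vehicle. The model is limited to 1 cell line, and whether replicates came from separate passages was not stated. Values are log2 expression, so a difference of 1 is a 2-fold change, and a value under 4 is near background. With RNA from a whole well, fewer cells that express a gene and less RNA per cell cannot be told apart.

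In the kidney, tubular epithelium rests on a basement membrane in which networks of type IV collagen and laminin are joined by nidogen, perlecan and agrin. Type IV collagen forms trimers of which the alpha-1 and alpha-2 chains are found in nearly all tissues, whereas the alpha-3, alpha-4 and alpha-5 chains form a separate network, best known in glomeruli and some tubules. Laminins are trimers of an alpha, a beta and a gamma chain. Integrins pair an alpha with a beta chain: the beta-1 chain pairs with most collagen and laminin receptors, beta-4 pairs with alpha-6 in the laminin receptor of hemidesmosomes, and beta-3, beta-5 and beta-8 pair with alpha-v in receptors of vitronectin and of latent TGF-beta.

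The arrays had like signal, with 39.7% to 40.3% of probe sets above 4 and array medians of 2.86 to 2.95. Of 10 markers of renal epithelium, 8 were above 4 on all 18 arrays, among them PAX8, CDH6, KRT8, KRT18 and EPCAM. Of 9 proximal tubule markers, 8 were never above 4, including LRP2, CUBN, ANPEP and AQP1, and MIOX alone was above it, at 8.19 to 10.38. The tubular origin in the labels was thus met by renal epithelial genes more than by genes of a differentiated proximal tubule. All 6 endothelial and all 4 leukocyte markers stayed under 4. Of 7 fibroblast markers, DCN and LUM were above 4 on all arrays, and PDGFRA, PDGFRB, THY1, FAP and TCF21 never were. Both ethanol arrays with replicate number 3 stood apart: on the second principal component of all genes, with 30.7% of the variance, they lay at -52.3 and -61.6 against -21.2 to 20.5 for the other 16 arrays. Results that use those arrays are therefore given with and without them.

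The level test split each family by chain. Type IV collagen was measured through COL4A1, COL4A2, COL4A3, COL4A4 and COL4A5, while COL4A6 had a highest value of 2.27 on any array. The fibrillar collagens of interstitial matrix were mostly out of range: COL1A2 reached 3.96, COL5A1 3.82 and COL5A2 3.46, COL13A1, a membrane collagen, 2.97, and COL3A1 passed 4 on 1 array, at 4.06. COL1A1 was above 4 on all arrays, at 7.35 to 8.89. Type VI collagen was present through COL6A1 and COL6A2, whereas COL6A3, the third chain of the usual trimer, reached only 2.21 on its 1 probe set. Laminin chains measured were LAMA1, LAMA2, LAMA5, LAMB1, LAMB2, LAMB3, LAMC1 and LAMC3, and LAMA4 had a highest value of 3.19. Among integrins, the leukocyte chains ITGB2, ITGB7, ITGAM and ITGAX stayed under 4, as did ITGA8, a chain of kidney mesenchyme, with a highest value of 2.83.

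Of the 47 members, 40 were above 4 on all 18 arrays. Those that passed on few arrays were ITGAL on 3, ITGB2-AS1 on 4, COL4A3 on 7, COL11A1 on 9, COL12A1 on 12, LAMA2 on 16 and COL4A4 on 17. A member above the level on only some arrays entered through the arrays where it was high, whichever group they were in. Its fold change is therefore not exact. Where those arrays lay mostly in some of the groups, its p-values are not independent of that level. The nearest member inside the limit was ITGAL, the alpha chain of a leukocyte integrin, with a highest value of 4.25. Just outside lay ITGB1-DT and ITGA1, which passed 4 on 2 arrays each with highest values of 6.68 and 6.50.

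The type IV collagen genes lie head to head in pairs that share a short stretch between divergent starts. Both genes of a pair were measured for COL4A1/COL4A2 and COL4A4/COL4A3, and only COL4A5 of the pair with COL4A6. The stretches are shown because the type IV chains are described by pair. They are RefSeq sequences of the human build GRCh38.p14, read 5′ to 3′ on the plus strand, in which the gene named ahead of the slash is on the minus strand. Capitals mark GGGCGG, the GC box, or CCAAT, the CCAAT box, on either strand.
COL4A1/COL4A2 (chr13:110307158-110307283): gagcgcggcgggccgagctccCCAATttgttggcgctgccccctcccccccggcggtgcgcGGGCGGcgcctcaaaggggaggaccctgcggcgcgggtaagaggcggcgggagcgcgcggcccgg
COL4A4/COL4A3 (chr2:227164489-227164623): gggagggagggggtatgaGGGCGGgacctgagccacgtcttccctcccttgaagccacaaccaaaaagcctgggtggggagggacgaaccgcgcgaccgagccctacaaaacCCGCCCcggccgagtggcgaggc
COL4A6/COL4A5 (chrX:108439588-108439837): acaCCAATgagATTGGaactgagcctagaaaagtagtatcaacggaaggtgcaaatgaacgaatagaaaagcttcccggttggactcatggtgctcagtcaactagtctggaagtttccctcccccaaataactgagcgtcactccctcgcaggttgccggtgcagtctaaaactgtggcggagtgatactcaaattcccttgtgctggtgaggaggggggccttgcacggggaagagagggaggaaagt
The 126 bases of COL4A1/COL4A2 and the 135 bases of COL4A4/COL4A3 are the whole gap between the annotated genes, and the 250 bases shown for COL4A6/COL4A5 lie next to COL4A5 in a gap of 379. The COL4A1/COL4A2 stretch held 1 GGGCGG and 1 CCAAT, against 34.6% and 21.1% of 35116 RefSeq promoter windows of that length with at least 1. The COL4A4/COL4A3 stretch held 2 GGGCGG and no CCAAT, where 35.5% and 22.1% of such windows hold them. The COL4A6/COL4A5 stretch held no GGGCGG and 2 CCAAT in opposite orientation, where 42.6% of windows hold at least 1 GGGCGG and 32.0% at least 1 CCAAT. No stretch held TATAAA, found in 5.87%, 6.13% and 10.7% of windows of the same 3 lengths, or TGANTCA, found in 3.5%, 3.78% and 6.57%. These letter matches are descriptions of sequence and say nothing of which factors bind there.

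Culture time was compared within each control, 48 h against 24 h. In a fit of all 18 arrays no member passed in medium or in DMSO by limma with Benjamini-Hochberg adjustment over all genes, and neither did any other gene (0% of all genes called). There were 7 members with an unadjusted p under 0.05 in each, 14.9% of members against 11.1% of all genes in medium and 10.2% in DMSO. Arrays that share a replicate number varied together among the DMSO and medium groups, with correlations of their deviations from 0.526 to 0.731, so the replicate number was also used as a block. With the block, 3 members passed in medium (4.04% of all genes) and 3 in DMSO (2.37%) on 18 arrays. On the 12 DMSO and medium arrays alone with the block, a fit chosen after the data were seen, 19 members passed in medium, 40.4% against 29.8% of all genes, 10 higher and 9 lower where 12.5% and 17.3% of all genes were. In DMSO 19 passed too, 40.4% against 28.5%, again 10 higher and 9 lower beside 13.4% and 15%. Without the block, those 12 arrays gave 2 members in each, COL6A1 and LAMA1, beside 1.37% and 1.05% of all genes. The directions given below are from the blocked fit of 12 arrays.

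In that fit the minor type IV collagen chains, the laminin alpha-1, beta-1 and gamma-1 chains and integrin beta-8 rose between 24 h and 48 h in both medium and DMSO. COL6A1, COL1A1, COL7A1 and the integrin alpha chains ITGA3, ITGA5 and ITGAE fell in both. Of the 19 members called in each control, 15 were called in both, 78.9% of each list, and all 15 moved the same way, 9 higher and 6 lower. Over all genes 2311 were called in both, 71.6% of the medium list and 75% of the DMSO list, so the shared share of the members was near that of all genes. All 2311 of those genes moved the same way too, so the shared direction was not particular to the members. Arrays with the same number varied together, so DMSO does not count as an independent repeat of medium. By family, medium had 6 collagens higher and 3 lower, 3 laminins higher and none lower, and 1 integrin gene higher and 6 lower. DMSO had 5 and 5 collagens, 3 and 0 laminins, and 2 and 4 integrin genes.

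COL4A4, the alpha-4 chain, was at 4.92, 4.80 and 4.46 in medium at 24 h and at 5.62, 6.01 and 6.00 at 48 h. In DMSO it was at 4.12, 4.64 and 5.11 at 24 h and at 5.17, 5.80 and 5.18 at 48 h. The 2 times did not overlap in either control, and the blocked differences were 1.15 ± 0.23 in medium (adjusted p = 0.00617) and 0.76 ± 0.23 in DMSO (adjusted p = 0.0369). COL4A3, its partner across the 135 bases, was at 2.07, 3.10 and 1.91 in medium at 24 h and at 3.61, 5.07 and 4.48 at 48 h. All 24 h values were in the background range in both controls, and at 48 h COL4A3 was above 4 on 2 of 3 medium arrays and on 1 of 3 DMSO arrays. Its difference of 2.03 ± 0.20 in medium (adjusted p = 0.000302) and of 1.48 ± 0.20 in DMSO (adjusted p = 0.00144) therefore has no exact size. COL4A3 passed the level only through groups where it was high, so these p-values are not independent of that level. COL4A5 rose by less: it was at 6.32, 6.09 and 5.87 in medium at 24 h and at 6.55, 7.10 and 6.44 at 48 h, a difference of 0.60 ± 0.17, and of 0.69 ± 0.17 in DMSO. The group values of COL4A5 overlapped in DMSO but not in medium.

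For the major chains the 2 times overlapped. COL4A1 was at 12.71, 12.20 and 12.33 in medium at 24 h and at 12.61, 12.24 and 12.45 at 48 h. COL4A2 was at 12.99, 12.38 and 12.64 and then at 13.06, 12.53 and 12.80. Neither was called with culture time, with differences of 0.02 ± 0.34 and 0.12 ± 0.29 in medium in the fit of 18 arrays. Replicate 1 was highest for both genes at both times, in medium and in DMSO. COL4A4 was thus called in both blocked time comparisons and COL4A1 and COL4A2 in neither, but the difference between these genes was not tested.

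**Figure D1:**
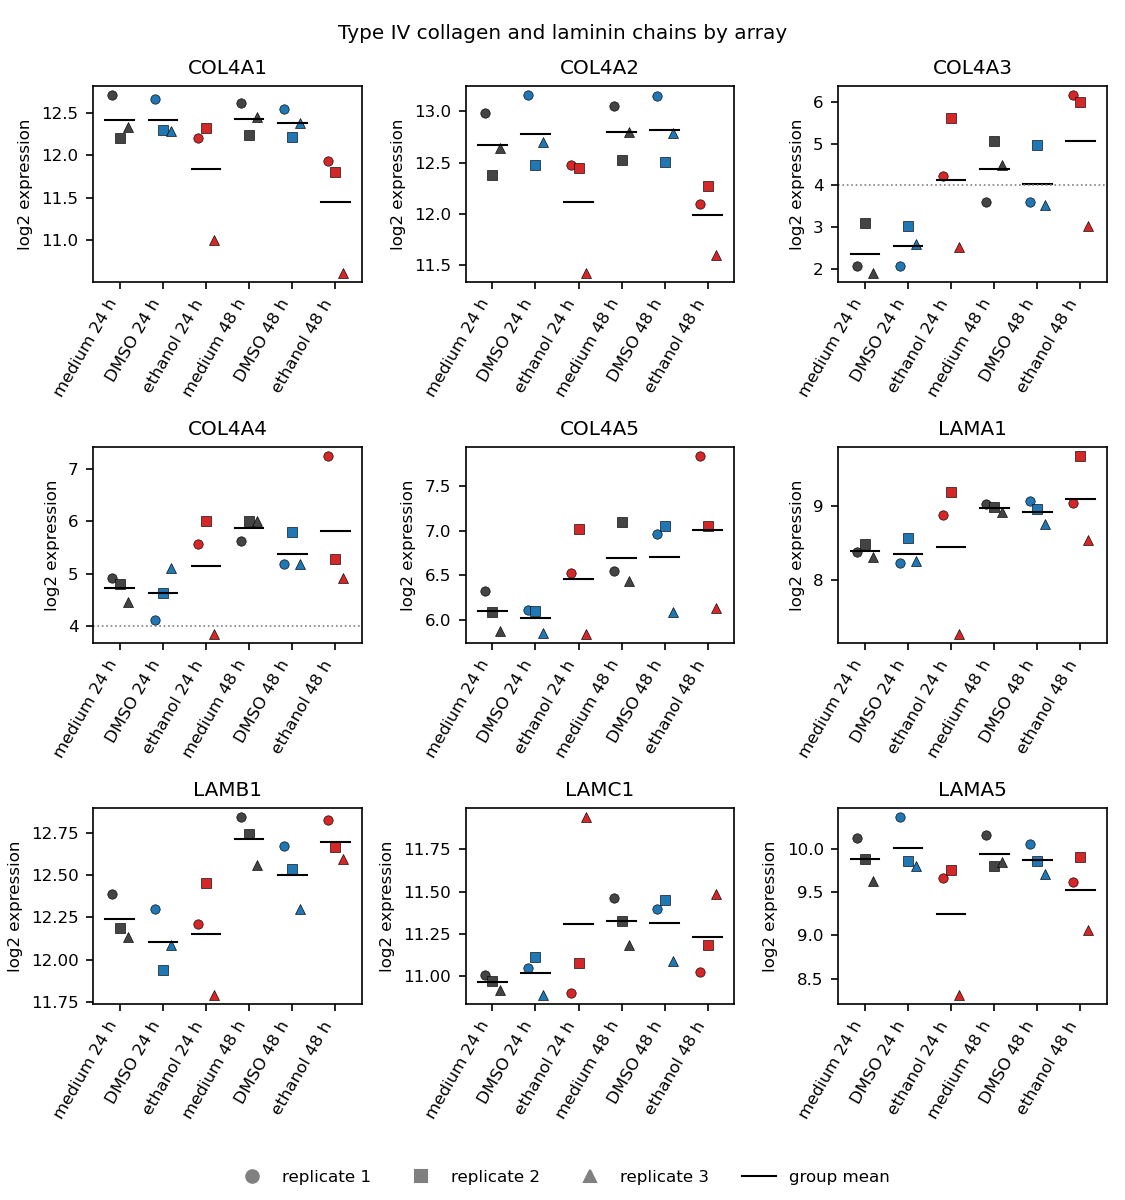
Log2 expression (y axis of each panel) of 5 type IV collagen and 4 laminin chains in the 6 groups (x axis). Each point is an array, its shape is the replicate number, the bar is the mean of 3 arrays, and the dotted line marks a log2 value of 4. COL4A3, COL4A4, LAMA1 and LAMB1 sat higher at 48 h than at 24 h in medium, while COL4A1, COL4A2 and LAMA5 were lowest on ethanol replicate 3.

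The laminin chains that rose make up a trimer of embryonic and tubular basement membranes. LAMA1, the alpha-1 chain, was at 8.37, 8.48 and 8.31 in medium at 24 h and at 9.02, 8.99 and 8.91 at 48 h. In DMSO it was at 8.23, 8.56 and 8.26 and then at 9.07, 8.95 and 8.75. All 48 h arrays of both controls lay above all 24 h arrays, with blocked differences of 0.59 ± 0.09 (adjusted p = 0.00148) and 0.57 ± 0.09 (adjusted p = 0.00201). LAMB1 was at 12.39, 12.19 and 12.14 in medium at 24 h and at 12.84, 12.74 and 12.56 at 48 h, a blocked difference of 0.48 ± 0.08. In DMSO the difference was 0.39 ± 0.08, and replicate 3 at 48 h, at 12.30, met replicate 1 at 24 h, at 12.30. LAMC1 was at 11.01, 10.97 and 10.92 and then at 11.46, 11.33 and 11.18 in medium, a difference of 0.36 ± 0.07, and 0.30 ± 0.07 in DMSO, where the times overlapped. A second probe set of LAMC1 gave 0.10 ± 0.27 in medium in the unblocked fit, so the probe sets of that gene were not alike in size. No other laminin chain was called in the blocked fit. The errors that follow are from the unblocked fit of all arrays and are not comparable with the blocked errors above. LAMA5, the main alpha chain of mature tubules, differed by 0.06 ± 0.32 in medium and -0.13 ± 0.32 in DMSO. LAMB2 differed by -0.04 ± 0.28 and -0.06 ± 0.28, and LAMB3 by -0.21 ± 0.60 and -0.25 ± 0.60. LAMB3 was nevertheless lower at 48 h in all 6 replicate pairs of medium and DMSO.

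Among other collagens, the largest called rise belonged to COL14A1, a fibril-associated collagen. It was at 9.15, 9.81 and 8.83 in medium at 24 h and at 10.31, 11.17 and 10.25 at 48 h. In DMSO it was at 9.17, 9.66 and 8.82 and then at 10.40, 11.04 and 9.78. No array overlapped, and the blocked differences were 1.31 ± 0.10 in medium (adjusted p = 0.000180) and 1.19 ± 0.10 in DMSO (adjusted p = 0.000331), folds of 2.48 and 2.29. It was also the 1 member called in both controls in the blocked fit of 18 arrays. COL22A1, a collagen of tissue junctions, rose by 0.35 ± 0.11 and 0.70 ± 0.11.

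COL6A1, a chain of the microfibrillar type VI collagen, was at 9.90, 9.80 and 10.01 in medium at 24 h and at 9.54, 9.51 and 9.37 at 48 h. DMSO gave 9.82, 9.89 and 9.90 and then 9.37, 9.39 and 9.39. The times did not overlap, and the gene fell by 0.43 ± 0.07 (adjusted p = 0.00285) and 0.48 ± 0.07 (adjusted p = 0.00202). COL1A1, the major chain of fibrillar type I collagen, fell by 0.70 ± 0.16 and 0.55 ± 0.16, with no overlap in either control. Another probe set of COL1A1 gave 0.00 ± 0.28 in medium in the unblocked fit. COL7A1, which forms anchoring fibrils under epithelia, fell by 0.56 ± 0.17 and 0.83 ± 0.17, although replicate 1 in medium stood at 7.30 at both times. COL12A1, which decorates fibrils of type I collagen, fell by 1.35 ± 0.29 in DMSO (adjusted p = 0.00985 by limma) and was not called in medium, at -0.77. In DMSO it was at 5.32, 4.25 and 6.25 at 24 h and at 3.86, 3.65 and 4.27 at 48 h. The times overlapped and the fall ran into background, so it has no exact size. The p-values of COL12A1 are not independent of the level for testing. Whether its change differed between the controls was not tested. COL11A1 fell by 0.58 ± 0.19 in DMSO alone, from 5.31, 4.08 and 4.48 to 4.17, 4.02 and 3.93, with the limits given for COL12A1. COL11A2, another minor fibrillar chain, rose by 0.22 ± 0.07 in medium alone. For both genes the difference between controls was not tested. COL11A2 lay at 4.04 to 4.88 over all 18 arrays, close to background, and its medium values overlapped between the times.

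Among integrin genes, 6 of 7 calls in medium and 4 of 6 in DMSO were lower at 48 h. ITGA3, the alpha chain of a laminin receptor with beta-1, was at 10.66, 9.90 and 10.95 in medium at 24 h and at 9.98, 9.40 and 10.38 at 48 h. The times overlapped, because the replicates differed by more than the times, yet each replicate was lower at 48 h, by 0.58 ± 0.08 in medium (adjusted p = 0.000858) and by the same 0.58 ± 0.08 in DMSO (adjusted p = 0.00117). ITGA5, the alpha chain of the fibronectin receptor, fell by 0.56 ± 0.12 and 0.44 ± 0.12. ITGAE, which pairs with beta-7 in a receptor of E-cadherin, fell by 0.56 ± 0.07 and 0.37 ± 0.07; ITGB7 itself was never above 3.02. ITGB8 was the integrin chain that rose in both: 11.59, 11.60 and 11.39 became 12.09, 12.39 and 11.86 in medium, and 11.16, 11.38 and 10.96 became 11.99, 12.08 and 11.51 in DMSO. No array overlapped, with blocked differences of 0.59 ± 0.08 (adjusted p = 0.00132) and 0.69 ± 0.08 (adjusted p = 0.000879). Another ITGB8 probe set gave -0.21 ± 0.43 in medium in the unblocked fit, opposite in sign. Calls in 1 control were ITGA4 at -0.87, ITGB5 at -0.28 and ITGB1BP1 at -0.17 in medium, and ITGB3 at -0.29 and ITGB8-AS1 at 0.35 in DMSO. The broadly shared chains ITGB1 and ITGAV differed by -0.08 ± 0.13 and -0.03 ± 0.16 in medium in the unblocked fit of all arrays. Neither was called in the blocked fit.

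Read by replicate, 10 members were higher at 48 h in all 6 replicate pairs of medium and DMSO and 13 were lower in all 6, together 48.9% of members against 42.2% of all genes. Leaving out a replicate number from the blocked 12-array fit gave 11 members without replicate 1, 13 without replicate 2 and 14 without replicate 3 in medium, beside 12.7%, 17% and 15.2% of all genes. In DMSO it gave 8, 10 and 17, beside 8.59%, 9.9% and 18.8%. All 19 called in each control kept their sign each time. COL14A1, COL4A3, COL6A1, ITGA3, ITGB8 and LAMA1 were called in both controls in each of these fits, with the limit on COL4A3 given above.

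**Figure D2:**
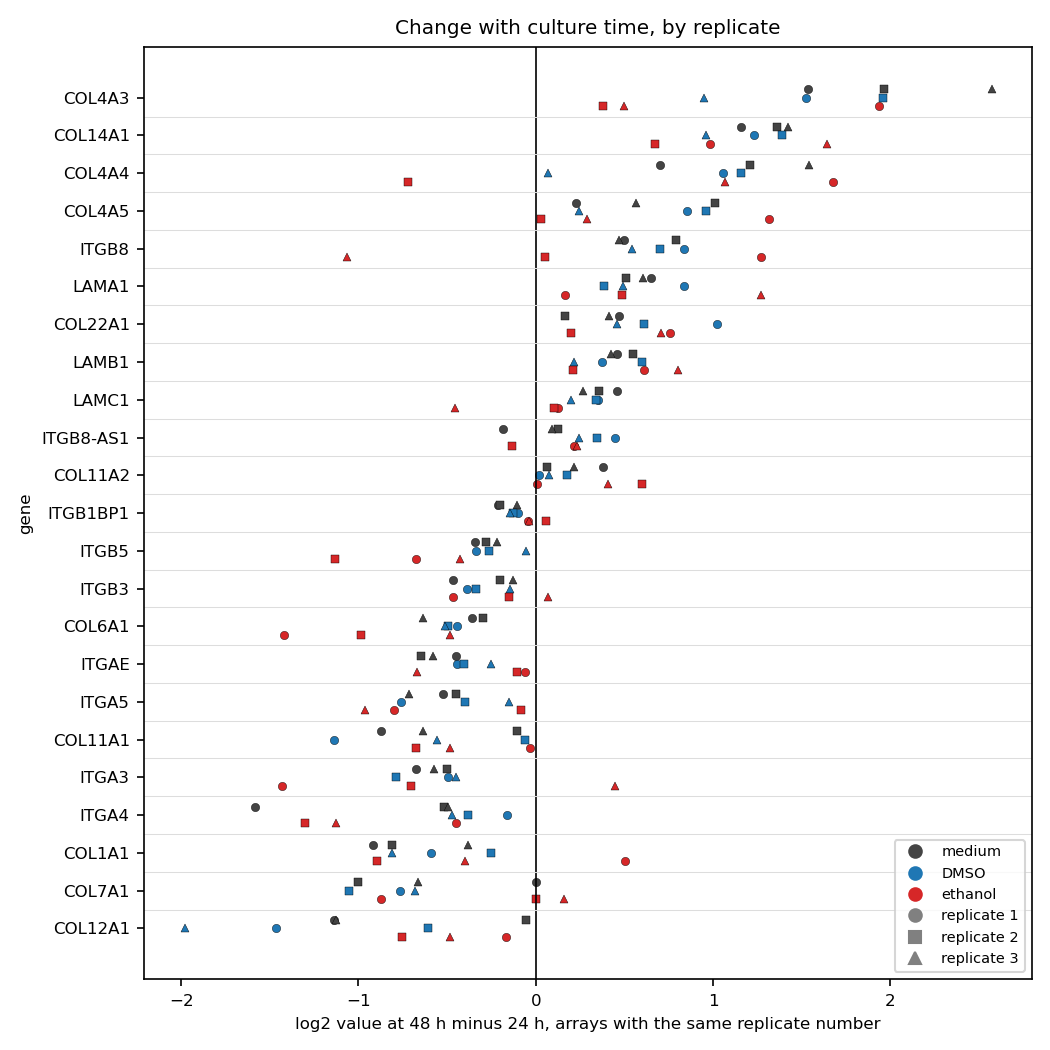
Difference in log2 value between 48 h and 24 h (x axis) for the 23 members called in medium or DMSO in the blocked 12-array fit (y axis), with 1 point for each pair of arrays that share a replicate number. Colour gives the control and shape the replicate number; COL14A1 and LAMA1 lie right of 0 and COL6A1 left of 0 in all 9 pairs, ethanol included, while ITGB8 is at -1.06 in ethanol replicate 3.

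Genes that work with these families were counted from 4 lists in the same blocked fit, in which 12.5% of all genes were higher and 17.3% lower in medium, and 13.4% and 15% in DMSO. Of 19 basement membrane partners and integrin ligands, 5 were higher and 2 lower in medium, and 6 and 2 in DMSO. FREM2 rose by 1.26 and 1.50, NID2, a nidogen, by 0.81 and 0.64, and FRAS1 by 0.79 and 0.62. THBS1, or thrombospondin, fell by 1.49 and 1.17, and TGFBI, an integrin ligand, by 1.15 and 1.10. Of 22 integrin adaptors and focal adhesion genes, 1 was higher and 8 lower in medium, and 0 and 9 in DMSO, with ZYX at -0.58 and -0.67 and TLN1, or talin, at -0.62 and -0.43. Of 10 other matrix receptors, 1 was higher and 6 lower in medium, and 0 and 6 in DMSO, among them PLAUR at -0.89 and -1.16 and CD44 at -0.76 and -0.51. Collagen modification and processing had 5 higher and 5 lower of 23 in medium and 4 and 3 in DMSO, with P4HA2, a prolyl hydroxylase, at -0.66 and -0.56.

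Ethanol was compared with medium to see if this vehicle alone moves the matrix genes. At 48 h the integrin beta chains ITGB4 and ITGB5 and the collagen COL8A1 were lower with ethanol, and no member was called higher. These 3 were 6.38% of members beside 15.3% of all genes called, a difference in share that was not tested, and by direction 7.47% of all genes were called lower and 7.8% higher. The median difference of the 47 members was -0.06, against -0.04 for all genes, with -0.15 for collagens, -0.05 for laminins and -0.04 for integrin genes. These medians without both ethanol replicate 3 arrays were -0.027 for members, -0.027 for all genes, -0.058 for collagens, 0.027 for laminins and -0.027 for integrin genes. Arrays of both groups were fully apart for 10 members, 21.3% against 29.6% of all genes, 8 lower and 2 higher with ethanol.

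ITGB5, a vitronectin receptor chain, was at 10.21, 10.34 and 10.39 in medium and at 9.86, 9.46 and 10.14 with ethanol. DMSO arrays were at 10.34, 10.52 and 10.46, so all ethanol arrays lay below all others at 48 h. The difference from medium was -0.49 ± 0.14, with an adjusted p of 0.0252 by limma, and from DMSO -0.62 ± 0.14 (adjusted p = 0.00643). Its other probe sets gave -0.49 ± 0.29 and -0.21 ± 0.14 against medium, lower too but not called.

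ITGB4, the hemidesmosome chain, was at 7.18, 6.37 and 7.17 in medium and at 5.94, 6.28 and 4.77 with ethanol. The groups did not overlap, with ethanol replicate 3 lowest by far. The gene was lower by -1.24 ± 0.38 against medium (adjusted p = 0.0373), a fold of 2.37, and by -1.33 ± 0.38 against DMSO (adjusted p = 0.0243). Its second probe set gave -0.64 ± 0.41 and was not called. ITGA6, its alpha partner, was at 8.08, 7.96 and 7.75 with ethanol, below 8.41, 8.57 and 8.67 in medium and 8.45, 8.79 and 8.73 in DMSO. It was called against DMSO, at -0.73 ± 0.22 (adjusted p = 0.0355), and not against medium, at -0.62 ± 0.22 (adjusted p = 0.0729). These comparisons share the ethanol arrays. The call of ITGA6 against DMSO was lost when its probe sets were averaged, without the level filter, or in a fit of the compared groups alone.

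ITGB3, a further partner of alpha-v, was at 9.93, 9.64 and 9.87 with ethanol and at 10.27, 10.27 and 10.92 in DMSO, a difference of -0.68 ± 0.22 (adjusted p = 0.0476). Against medium, at 10.08, 10.40 and 10.75, it was -0.60 ± 0.22 and not called. COL8A1, a network-forming collagen first known from endothelium, was at 12.09, 12.10 and 11.76 in medium and at 11.73, 11.05 and 10.43 with ethanol. The difference was -0.91 ± 0.26 (adjusted p = 0.0279), and a second probe set gave -1.38 ± 0.28. Against DMSO it was -0.86 ± 0.26 (adjusted p = 0.0320), with 1 ethanol array above the lowest DMSO array of 11.61. In all, 5 members were called against DMSO at 48 h, all lower, which is 10.6% of members and 17.9% of all genes, of which 9.31% were lower and 8.55% higher. Without both ethanol replicate 3 arrays 8 members were called against DMSO, 6 lower and 2 higher, beside 21.2% of all genes, 1216 genes lower and 1084 higher. ITGA6, ITGB4 and ITGB5 were among the 8, and COL8A1 and ITGB3 were not. COL4A1, COL6A1 and ITGA3 were the others called lower, and COL4A3 and ITGB2-AS1, both limited by background, were called higher.

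**Figure D3:**
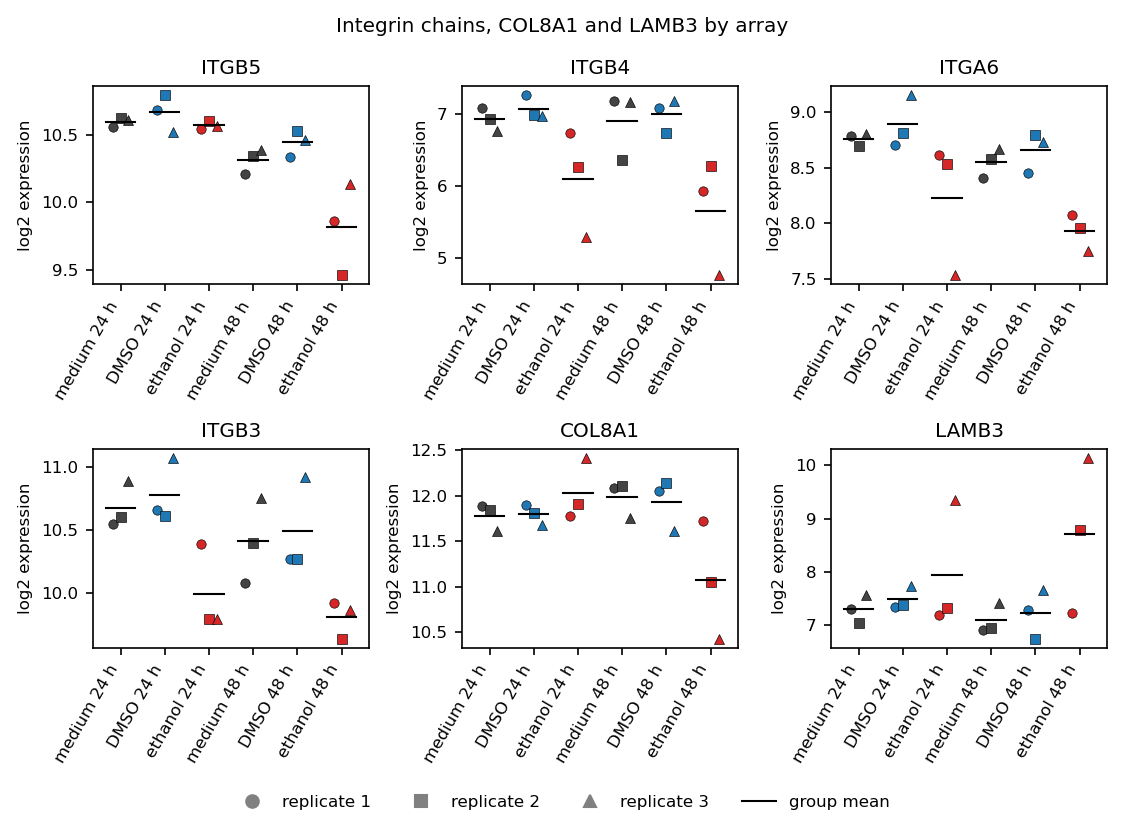
Log2 expression (y axis of each panel) of integrin chains, COL8A1 and LAMB3 in the 6 groups (x axis). Points are arrays, shapes are replicate numbers and bars are means of 3 arrays; the ethanol 48 h arrays of ITGB5 and ITGA6 lie below all medium and DMSO arrays, and LAMB3 spans 7.24 to 10.13 with ethanol at 48 h.

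Against medium, ITGB4 was at -1.11 (adjusted p = 0.124) when replicate 1 or replicate 3 of medium was left out, and at -0.80 (adjusted p = 0.144) without ethanol replicate 3. ITGB5 was at -0.48 and -0.45 (adjusted p = 0.0688 and 0.0906) when replicate 2 or replicate 3 of medium was left out, and at -0.31 (0.0914) without ethanol replicate 2. COL8A1 was at -0.86 and -0.85 (adjusted p = 0.0868 and 0.0816) without medium replicate 1 or 2, and at -0.90 and -0.59 (0.0717 and 0.106) without ethanol replicate 2 or 3. The count against medium was 1 without any 1 medium array or without ethanol replicate 2, and 7 without ethanol replicate 1, and the signs did not change. Against DMSO the count was 2 without DMSO replicate 1 or 3 or without ethanol replicate 2 or 3, and 9 without ethanol replicate 1. ITGB5 against DMSO kept its call in all 6 such fits, at -0.78 to -0.44. COL8A1 was not called there without DMSO replicate 1 or 2 or ethanol replicate 2 or 3 (-0.85 to -0.55), and ITGB4 not without DMSO replicate 1 or 3 or ethanol replicate 3 (-1.29 to -0.89). ITGA6 was not called without DMSO replicate 2 or 3 or ethanol replicate 2 or 3 (-0.75 to -0.64). ITGB3 was called in 1 of 6 such fits, that without DMSO replicate 2, and lay at -0.79 to -0.46 in the other fits.

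Without both ethanol replicate 3 arrays, 7 members were called against medium at 48 h, 6 lower and 1 higher, beside 17.3% of all genes, 8.64% lower and 8.71% higher. ITGB4, at -0.80 ± 0.24, and ITGB5, at -0.65 ± 0.12, were among them, and COL8A1, at -0.59 ± 0.20, was not (adjusted p = 0.0568). The others were COL6A1 at -0.90 ± 0.11, ITGA3 at -1.26 ± 0.41, COL4A1 at -0.57 ± 0.17, ITGA6 at -0.53 ± 0.14 and ITGB2-AS1, an antisense RNA near background, at 0.76 ± 0.23. COL6A1 with ethanol at 48 h was at 8.41 and 8.74 in replicates 1 and 2 and at 9.58 in replicate 3, beside 9.37 to 9.54 in medium. ITGA3 was at 8.32 and 9.01 in replicates 1 and 2 and at 10.61 in replicate 3, so that only replicate 3 lay above the medium range of 9.40 to 10.38.

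**Figure D4:**
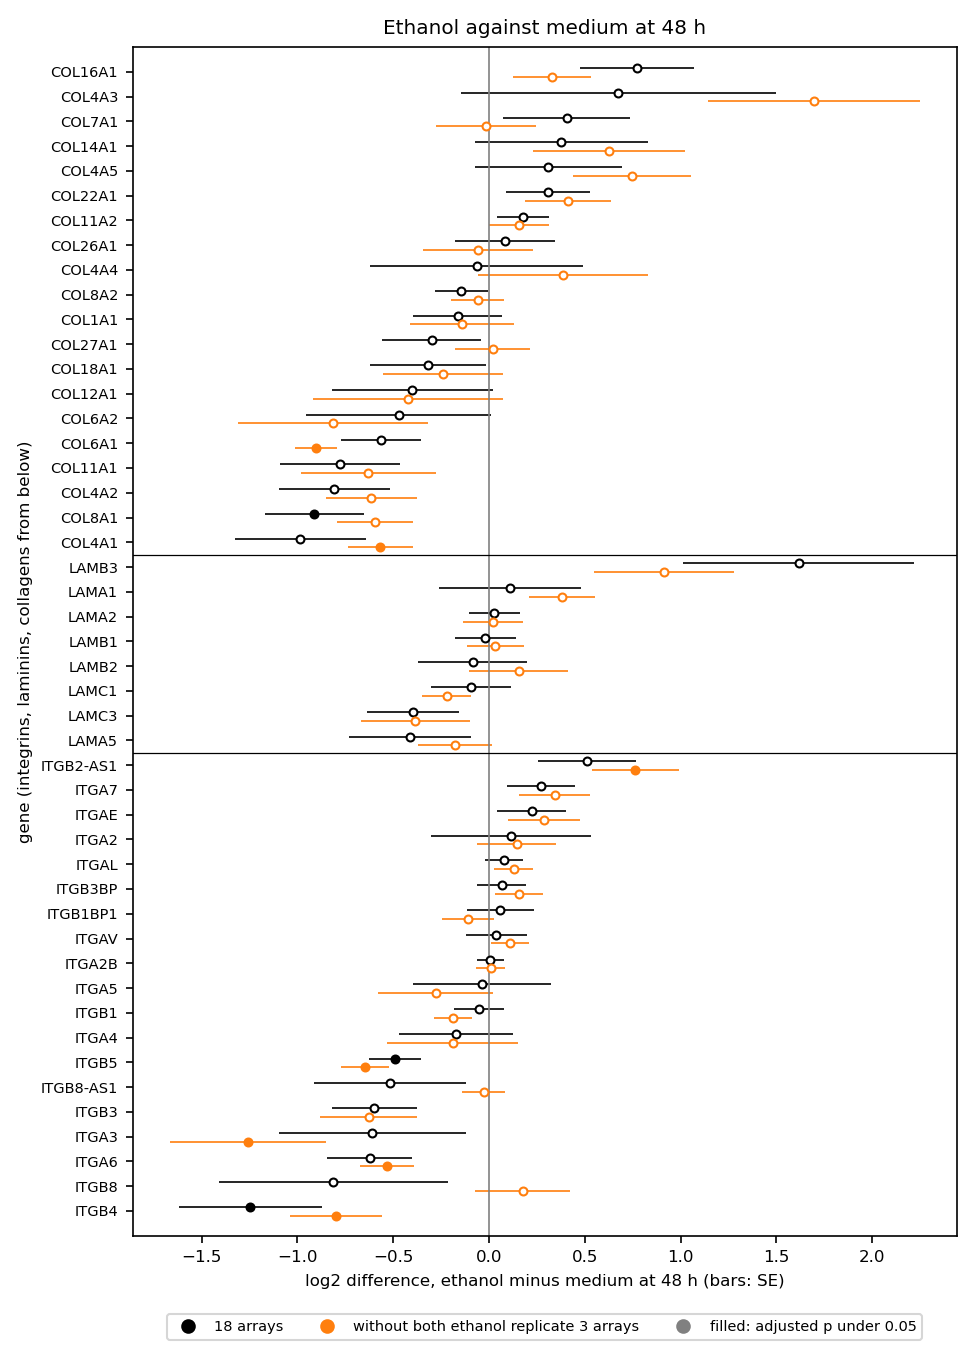
Log2 difference between ethanol and medium at 48 h (x axis, bars are standard errors) for the 47 members (y axis), from all 18 arrays in black and without both ethanol replicate 3 arrays in orange. Filled points have an adjusted p under 0.05: ITGB4 and ITGB5 are filled in both fits, and LAMB3 at 1.62 is not called.

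Several members with a wide spread were not called at 48 h. LAMB3, a laminin beta chain of skin and injured epithelium, was at 7.24, 8.79 and 10.13 with ethanol and at 6.92, 6.96 and 7.42 in medium, a difference of 1.62 ± 0.60 (adjusted p = 0.0844) that overlapped medium through replicate 1. COL4A1 was at 11.93, 11.80 and 10.61 with ethanol against at least 12.24 in medium, -0.98 ± 0.34, and COL4A2 at 12.09, 12.27 and 11.60 against at least 12.53, -0.81 ± 0.29. Both genes of this pair were thus below medium on all ethanol 48 h arrays without passing, at adjusted p of 0.0650 and 0.0730. ITGB8 spanned 9.33 to 12.70 with ethanol, at -0.81 ± 0.60. COL16A1, at 0.77 ± 0.30, and COL18A1, the source of endostatin, at -0.32 ± 0.30, were not called, nor was LAMA5 at -0.41 ± 0.32, LAMC3 at -0.40 ± 0.24 or LAMA2 at 0.03 ± 0.13. COL6A2, the partner of COL6A1, differed by -0.47 ± 0.48, COL1A1 by -0.16 ± 0.23, COL7A1 by 0.41 ± 0.33 and ITGA5 by -0.04 ± 0.36, all with groups that overlapped and no call. ITGB1 and ITGAV, the shared chains, differed by -0.05 ± 0.13 and 0.04 ± 0.16.

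At 24 h no member was called against medium (0.0739% of all genes) or DMSO (0.619%), with 10 and 9 members at an unadjusted p under 0.05, where 8.91% and 12.9% of all genes were. ITGB3 was at 10.39, 9.79 and 9.79 with ethanol, below 10.55 to 10.88 in medium and 10.61 to 11.06 in DMSO. With the replicate block it was called against DMSO, at -0.78 ± 0.19, as was COL11A1, a minor fibrillar chain near background, at -0.97 ± 0.21, beside 3.26% of all genes. COL11A1 was under 4 on all ethanol arrays and passed the level only through DMSO and medium arrays. Its difference has no exact size, and its call is not independent of that level. The block called none against medium (1.02%). ITGB4 was at 6.73, 6.27 and 5.29 and ITGA6 at 8.61, 8.54 and 7.54 with ethanol at 24 h, all below medium, at -0.83 ± 0.38 and -0.53 ± 0.22, with neither called. Without both ethanol replicate 3 arrays, COL4A3 was the 1 member called against medium (1.33%) and against DMSO (2.51%), at 2.57 and 2.36, from values of 4.23 and 5.62 with ethanol. At 24 h it was at most 3.10 in medium and 3.02 in DMSO, so it passed the level for testing only through groups where it was high. These calls are not independent of that level.

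The same lists were counted for ethanol against medium at 48 h, where 7.47% of all genes were lower and 7.8% higher. Of 22 integrin adaptors and focal adhesion genes, 6 fell and none rose, with TLN1 at -1.64 ± 0.34, PARVB at -1.47 ± 0.33, VCL, or vinculin, at -1.15 ± 0.15 and ACTN4 at -0.91 ± 0.24, and the list median was -0.48 against -0.04 for all genes. Of 19 basement membrane partners, AGRN at -1.04 ± 0.33, NID1 at -1.0 ± 0.27 and TNC at -0.80 ± 0.19 fell and none rose. Collagen modification had 2 higher and 3 lower of 23, with LOX, the lysyl oxidase that crosslinks collagen, at 2.39 ± 0.62 and LOXL2 at -0.77 ± 0.16. Of 10 other receptors, CD9 alone was called, at -0.96 ± 0.23. Without both ethanol replicate 3 arrays, the counts were 0 higher and 7 lower, 0 and 2, 2 and 3, and 0 and 2 in the order given, beside 8.71% of all genes higher and 8.64% lower. ACTN4 at -0.83 ± 0.28 and AGRN at -1.11 ± 0.38 were then not called (adjusted p = 0.0552 and 0.0626 by limma), and the adaptor median was -0.30. Markers of other cell types moved with ethanol at 48 h as well. Of the 7 fibroblast markers, LUM was called lower, at -1.07 ± 0.26 against medium and -0.82 ± 0.26 against DMSO, DCN was at -1.20 ± 0.48 and not called, and the other 5 were never above 4. LUM and DCN were both called lower against medium without both ethanol replicate 3 arrays, at -1.32 ± 0.26 and -2.06 ± 0.21. Of the 4 keratinocyte markers, KRT10 was called higher, at 0.55 ± 0.11 against medium, and the other 3 were near background. The mean of the fibroblast list was 4.33 to 4.87 on ethanol arrays and 4.85 to 4.90 in medium. That of the 10 renal epithelial markers was 9.42 to 9.96 and 9.80 to 10.14. Of these 10, 9 were tested, and none was called in the fit of all arrays. Without both ethanol replicate 3 arrays, CDH1 was called higher than in medium, at 1.273 ± 0.287. CDH6 at -1.003 ± 0.194 and PAX8 at -0.601 ± 0.191 were called lower there. The proximal tubule marker MIOX, at 0.666 ± 0.205, and SMTN, of smooth muscle, at -1.469 ± 0.42, were called there too. The part of all these markers in the result was not tested.

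Within ethanol, 5 members were called between 24 h and 48 h, 10.6% of members beside 23% of all genes. COL6A1, COL8A1, ITGA4 and ITGB5 fell and LAMB1 rose, where 11.3% of all genes fell and 11.7% rose. COL6A1 was at 9.83, 9.72 and 10.07 at 24 h and at 8.41, 8.74 and 9.58 at 48 h, a fall of 0.96 ± 0.21 (adjusted p = 0.00434 by limma). ITGB5 was at 10.54, 10.60 and 10.56 and then at 9.86, 9.46 and 10.14, a fall of 0.75 ± 0.14 (adjusted p = 0.00151). Neither overlapped between times, and both kept their call whichever array was left out. Both lost it in a fit of the ethanol groups alone, and ITGB5 also when its probe sets were averaged. COL8A1 went from 11.78, 11.91 and 12.41 to 11.73, 11.05 and 10.43, a fall of 0.96 ± 0.26 (adjusted p = 0.0152). ITGA4, which binds fibronectin and VCAM1, fell by 0.96 ± 0.30 (adjusted p = 0.0304), and LAMB1 rose by 0.54 ± 0.16 (adjusted p = 0.0256).

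COL14A1 at 1.10 ± 0.45 and ITGA2 at -1.06 ± 0.42 had larger differences within ethanol and were not called, with times that overlapped. COL14A1 was higher at 48 h in all 3 replicate pairs, by 0.98, 0.67 and 1.65, and with the replicate block it was called, at 1.10 ± 0.19 (adjusted p = 0.000877 by limma). ITGA2 was not called with the block, and LAMB3 was at 0.76 ± 0.60.

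COL6A1 and LAMB1 were also called in medium and DMSO in the blocked fit, in the same direction. ITGA4 and ITGB5 were called lower in medium in that fit, at -0.87 and -0.28, and COL8A1 was called in neither control. The test of the difference in time change between ethanol and medium called no member (1.59% of all genes), with 2 at an unadjusted p under 0.05 (13.8% of all genes), COL8A1 at -1.16 ± 0.36 and ITGB5 at -0.46 ± 0.19. The smallest adjusted p there was 0.139. It called COL8A1 without ethanol 48 h replicate 1, and COL6A1 without ethanol 48 h replicate 3 or without both ethanol replicate 3 arrays. COL8A1 was not called within ethanol without replicate 3 at 24 h (-0.78) or 48 h (-0.65), and LAMB1 not without replicate 3 at 24 h (0.36) or replicate 1 or 2 at 48 h (0.48 and 0.56). ITGA4 was not called without replicate 2 or 3 at either time (-0.98 to -0.77). The count was 3 without replicate 3 at 24 h, without replicate 2 at 48 h or without both replicate 3 arrays, where 19% of all genes passed, and 9 with the replicate block, beside 32.8%. Partner lists within ethanol had 0 higher and 1 lower among basement membrane partners (TGFBI, -1.15 ± 0.34), 2 and 4 among collagen modification genes, 0 and 3 among adaptors and 0 and 3 among other receptors, beside 11.7% of all genes higher and 11.3% lower. Without both ethanol replicate 3 arrays these were 0 and 3, 2 and 3, 0 and 3, and 0 and 3, beside 9.44% and 9.56%. Markers called between these times were LUM at -1.16 ± 0.26, CDH6, of renal epithelium, at -1.08 ± 0.25, SMTN, of smooth muscle, at -2.29 ± 0.65 and KRT10 at 0.33 ± 0.11. Without both ethanol replicate 3 arrays, DCN at -1.29 ± 0.23 and EPCAM at 0.37 ± 0.11 were called too, and KRT10 was not. The part of these markers in the result was not tested.

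Between DMSO and medium no member was called by limma at 24 h or 48 h (0% of all genes at each time). No member had an unadjusted p under 0.05 either, beside 204 and 53 genes in all, or 1.88% and 0.489%. Differences ran from -0.38 to 0.46 at 24 h and from -0.49 to 0.28 at 48 h. With the block on 12 arrays, 0 members were called, beside 0.102% of all genes at 24 h and 0 genes at 48 h, with 5 and 6 members at an unadjusted p under 0.05, 10.6% and 12.8% against 11.4% and 5.59% of all genes. COL4A1 differed by -0.004 ± 0.34 and -0.05 ± 0.34. These values do not show that the controls were alike.

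Members varied more among ethanol replicates than among the others, and so did all genes. The median SD of a member was 0.185 and 0.192 in medium and 0.208 and 0.219 in DMSO at 24 h and 48 h. With ethanol it was 0.351 and 0.349. All genes had 0.153 and 0.16 in medium, 0.153 and 0.171 in DMSO, and 0.219 and 0.263 with ethanol. Ethanol replicate 3 differed from the mean of the other ethanol replicates by more than 1 for 14 members at 24 h and 13 at 48 h, 29.8% and 27.7%, against 11% and 8.95% of all genes. COL4A1 on these arrays was at -1.26 and -1.25 relative to the mean of the other ethanol replicates, at 24 h and 48 h. ITGB8 was at 10.39 and 9.33, and the overlapping antisense RNA ITGB8-AS1 at 4.38 and 4.61 against at least 5.90 elsewhere. LAMA5 was at 8.31 and 9.06 there and at least 9.62 elsewhere. LAMB3 was at 9.35 and 10.13, and ITGA2, a collagen receptor chain, was at 7.15 at 24 h and 4.59 at 48 h beside at most 5.36 on all other arrays. The lowest or highest of all 18 values fell on these 2 arrays for 61.7% of members and 54.7% of all genes.

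**Figure D5:**
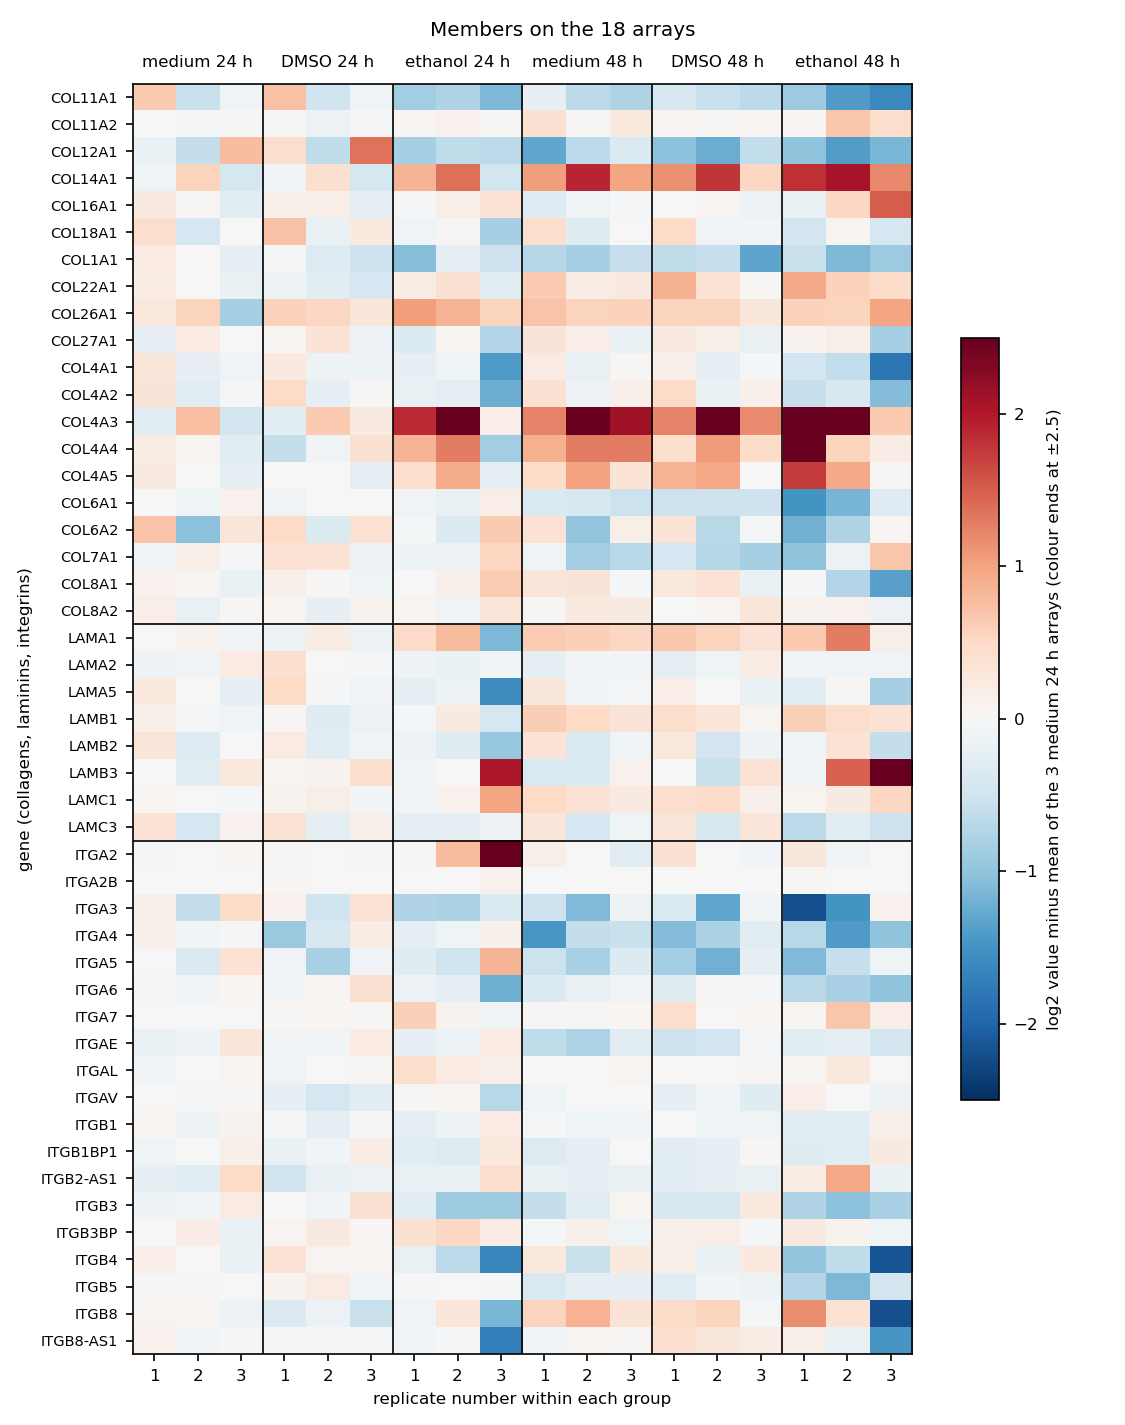
Log2 value of the 47 members (rows) on the 18 arrays (columns, by group and replicate number), as the difference from the mean of the 3 medium 24 h arrays, with colour ends at 2.5 in either direction. COL14A1, COL4A3 and LAMA1 turn red at 48 h in medium and DMSO, and the replicate 3 columns of ethanol differ from their neighbours, with LAMB3 red and ITGB8, ITGB8-AS1 and COL4A1 blue.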

How the data were processed

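RNA of 18 HK-2 cultures was measured on HG-U133 Plus 2.0 arrays. The authors deposited GCRMA values, per the submitters' processing notes, and these lie on a log2 scale, as read from the values. GCRMA corrects background by probe sequence and brings arrays to a shared distribution. Its version is not given in the sources used here. For the shorter time, the labels give 24 h and the series text 12 h, and 24 h was used. No raw intensities were used.

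Of 54675 probe sets, 41091 had 1 gene. Symbols came from the platform annotation, updated through gene identifiers in RefSeq. A probe set entered where its value exceeded 4 on at least 3 of 18 arrays, and the one with the highest mean stood for each gene. Of the members, 25 had several probe sets, and for 19 of these all pointed one way between ethanol and medium at 48 h. Levels were not compared between probe sets.

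Group means of all 18 arrays were fitted with limma 3.58.1 in R 4.3.3 (12 residual and 2.65 prior degrees of freedom), with 10 two-sided contrasts. P-values were adjusted by Benjamini-Hochberg over 10832 genes, and under 0.05 a gene was called. Errors are standard errors of the fit unless named otherwise, and p-values measure the spread between replicates as labelled. For arrays, their number limits the precision.

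Same-numbered arrays deviated together across genes: correlations were 0.526 to 0.731 among DMSO and medium groups, 0.149 to 0.480 for ethanol at 24 h with those, 0.319 to 0.680 between both ethanol times, and -0.083 to 0.411 for ethanol at 48 h with DMSO or medium. Over a threshold of 0.1 in every pair, numbers were taken to pair arrays, so not in the last case.

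Members, gene lists and the rule for named genes (called members, well known chains, the largest difference per family) were chosen with earlier results of these data known. Scripts were tested on simulated data. Promoter sequences were available in RefSeq for 33 of 47 members.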

Additional observations from a re-analysis of the deposited data

How the results depend on the processing

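None of the 13 calls of the 18-array fit changed sign under the alternatives run. For ethanol against medium at 48 h, the count of 3 was 3 with quantile normalization, a level of 5, moderated trend and robust fits or median centring (chosen after the data were seen) and 4 with array weights. It was 1 without the filter or with the mean of probe sets, 0 with only the groups compared, 9 with the replicate block (26% of all genes), whose numbers do not pair these arrays, 7 without both ethanol replicate 3 arrays, and 1 to 7 leaving out 1 array. At 24 h the count of 0 became 6 with array weights and 1 without both ethanol replicate 3 arrays. Against DMSO at 24 h, 0 became 2 with the block, 7 with array weights and 1 without both ethanol replicate 3 arrays. Against DMSO at 48 h, 5 became 1 without the filter, 3 with the mean of probe sets and 0 with only the groups compared. It became 11 with the block, whose numbers do not pair these arrays either. The count there was 8 without both ethanol replicate 3 arrays and 2 to 9 leaving out 1 array. Time in medium and in DMSO gave 3 each with the block and 19 each with the block on 12 arrays, and 0 leaving out 1 array. Time in ethanol, 5, gave 9 with the block, 0 with only the groups compared, 3 without both ethanol replicate 3 arrays and 3 to 6 leaving out 1 array. The difference in time change, 0, became 1 without both ethanol replicate 3 arrays and 0 to 1 leaving out 1 array. DMSO against medium stayed at 0 in every alternative run. Fits of only the groups compared have fewer arrays. Other causes were not tested. Signal near background limits COL4A3, COL4A4, COL11A1, COL11A2, COL12A1, LAMA2, ITGAL and ITGB2-AS1.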
